A study of Mus musculus with 14 samples.

Results

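The respiratory chain genes described here are the rows of the 14 count tables whose symbols begin with Nduf (other than Ndufaf), Uqcr, Cox4i, Cox5, Cox6, Cox7, Cox8, Atp5, mt-Nd, mt-Co, mt-Cytb or mt-Atp. The rule took 93 of the 21568 genes in the tables. Of these, 82 are encoded in the nucleus and 11 in the mitochondrial genome. By symbol the nuclear members comprise 38 genes of complex I, 8 of complex III, 18 of complex IV and 18 of ATP synthase, and 6 of the mitochondrial members belong to complex I. A symbol is not a proof of function: Atp5s and Atp5sl are not subunits of ATP synthase, Atp5l-ps1 is a pseudogene, and Cox7a2l takes part in joining complexes III and IV into supercomplexes. No rows carried the symbols mt-Atp8 and mt-Nd4l.

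Drop-seq, which pairs single cells with barcoded beads in droplets and captures the 3′ ends of polyadenylated RNA, was applied to tissue punches of the lateral hypothalamic area, a region that regulates feeding and arousal. All mice were male C57BL/6J with a wildtype genotype, fed freely and kept on a reversed light cycle. A high fat diet was given to 7 mice and a taste-matched control chow to the other 7, and 1 library was made per mouse. Sequencing pool 1 took 4 control and 4 high fat diet libraries, and pool 2, run on another lane, took 3 and 3.

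The respiratory chain passes electrons from NADH and succinate to oxygen and pumps protons across the inner mitochondrial membrane. Complex I takes electrons from NADH, complex III passes them to cytochrome c, complex IV (cytochrome c oxidase) hands them to oxygen, and ATP synthase uses the proton gradient to make ATP. Apart from complex II, these enzymes are built from proteins of both genomes: mitochondrial DNA encodes a few core subunits, transcribed as long precursors from both strands, and the nucleus encodes the rest. Several nuclear subunits exist as paralogues with tissue-specific use.

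Of 28410 barcodes, 15378 had at least 500 unique molecular identifiers (UMIs) and 300 genes. None of them exceeded 20% UMIs from mitochondrial genes, the highest share being 17.8%. After removal of 214 doublet calls (1.39%), 15164 cells with 37453009 UMIs remained, of which 1361280 were UMIs of nuclear members and 467674 of mitochondrial members. The kept cells per mouse ranged from 49 to 1753 and their UMIs from 118633 to 5169125, and 81 to 89 members had a UMI in a mouse. Only 3 barcode sequences occurred in more than 1 library. Cell classes were named from marker genes, and neither the members nor any mitochondrial gene entered the clustering. Classes ran from 6178 oligodendrocytes, 2812 GABAergic and 1953 glutamatergic neurons to 136 hypocretin neurons and 59 neurons with melanin-concentrating hormone (MCH). The remainder were 914 astrocytes, 673 oligodendrocyte precursors (OPCs), 447 microglia, 407 endothelial cells, 253 mural cells (pericytes and smooth muscle) and smaller groups, and 1048 cells stayed unnamed. Of the unnamed cells, 912 and 95 came from subclusters of clusters first named as neurons. Neurons had a median of 4082 UMIs and other cells 977. Libraries of control replicate 1, control replicate 2 and high fat diet replicate 1, all in pool 1, stood apart from the rest in members described below.

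Levels are given as UMIs per 10000 UMIs of a class in a mouse, so they are shares of the RNA captured and not amounts per cell. Because 1 UMI stands for 1 captured 3′ end, no correction for transcript length was made. In neurons the nuclear members summed to 436 ± 50.3 (SD, n = 13 mice), with a lowest value of 356, a median of 420 and a highest of 532. In oligodendrocytes they summed to 186 ± 23.6 (n = 14), with 163, 178 and 241 as lowest, median and highest, so that no neuronal value overlapped an oligodendrocyte value. The sum was 195 ± 29.97 in astrocytes (n = 12), 190 ± 21.3 in OPCs (n = 11) and 191 ± 23.0 in endothelial cells (n = 12). Mural cells had 243 ± 27.3 (n = 11), and microglia had the lowest sum of these classes at 122 ± 13.2 (n = 12).

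The mitochondrial members were ordered differently. They summed to 122 ± 14.6 in neurons and 129 ± 15.1 in oligodendrocytes, which overlapped (101 to 154 against 108 to 162). Mural cells had 148 ± 27.7, astrocytes 107 ± 25.8, microglia 104 ± 22.7, endothelial cells 104 ± 12.3 and OPCs 85.8 ± 11.7. The mitochondrial sum divided by the nuclear sum was therefore 0.284 in neurons, 0.700 in oligodendrocytes and 0.873 in microglia.

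**Figure D1:**
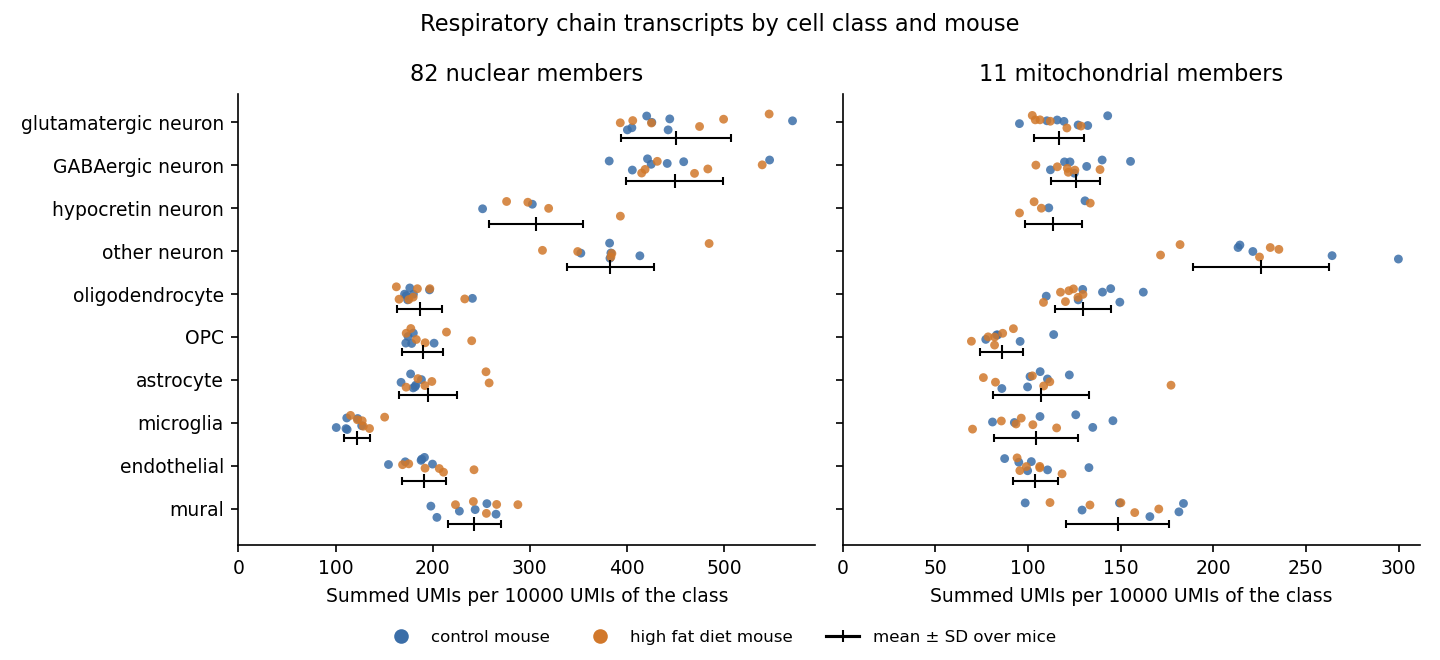
Summed UMIs of the nuclear members (left) and of the mitochondrial members (right) per 10000 UMIs of a cell class. Each point is 1 mouse, coloured by diet, and the black bars give the mean ± SD over mice. Neuron classes lie to the right of glia for nuclear members, whereas the mitochondrial sums of neurons (101 to 154) and oligodendrocytes (108 to 162) overlap.

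Ratios within a mouse gave the same picture. The nuclear sum of neurons over that of oligodendrocytes was 2.32 (geometric mean over 13 mice, 2.02 to 2.49), and it was above 1 in 13 of 13 mice. By enzyme the ratio was 2.33 for complex I, 2.12 for complex III, 2.11 for the nuclear part of complex IV and 2.63 for ATP synthase. Genes were assigned by symbol, which puts Ndufa4 under complex I and Atp5s and Atp5sl under ATP synthase. For the mitochondrial members it was 0.933, above 1 in 1 of 13 mice. These sums cover chosen genes and were not tested.

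Free RNA could add to these values. Barcodes below the cell filter carried 217 to 359 UMIs of nuclear members and 95.4 to 249 of mitochondrial members per 10000. For the nuclear sum this lay between the levels of glia and neurons. Whether these barcodes held free RNA or shallow cells was not tested, nor was the part of free RNA in the levels of glia. Cell depth moved with the sums too. In neurons with 500 to 999 UMIs the nuclear sum was 398 and the mitochondrial sum 191, against 440 and 121 in neurons with at least 4000 UMIs. These depth groups may also differ in the kinds of neuron they hold, and they leave out the unnamed cells. Unnamed neuron subclusters with medians of 828 and 848 UMIs had nuclear sums of 465 and 384 and mitochondrial sums of 138 and 134. The parts of depth and of cell kind were not tested.

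Coverage of the mitochondrial members was uneven. Averaged over 14 mice and all kept cells, the level was 38.3 for mt-Cytb (cytochrome b, the mitochondrial subunit of complex III) and 34.5 for mt-Nd1. The complex I genes mt-Nd4, mt-Nd2 and mt-Nd5 had 17.9, 14.0 and 11.0, and mt-Co1, the catalytic subunit of complex IV, had 3.89. The gene mt-Nd6, which lies on the light strand, had 1.35 and mt-Nd3 had 0.233. The genes mt-Co3 and mt-Co2 had 5 UMIs each in all cells and mt-Atp6 had 2, so they carry no information here. These genes have near-identical nuclear copies. Stretches of 50 bases were taken from the 3′ end of each transcript (at most 451) and sought on both strands. Of these, 99.8% in mt-Co3, 100% in mt-Co2, 99.3% in mt-Atp6, 98.0% in mt-Nd3 and 95.3% in mt-Co1 occur in annotated GRCm38 transcripts of other genes. The share was 17.7% for mt-Nd2 and 12.6% for mt-Nd5. A read from such a stretch maps to more than 1 place, and how these reads were counted is not given in the sources used here. The levels of mt-Co1 and mt-Nd3 are therefore uncertain.

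The 3′ parts of a poorly counted and a well counted mitochondrial gene are shown beside their nuclear copies, because Drop-seq reads come from there. Each stretch is 60 bases long and ends 10 bases before the end of the gene (GRCm38, chrM:9321-9380 for mt-Co3 and chrM:15219-15278 for mt-Cytb, plus strand). The copy Gm28437 (chr1:24613189-24613971, minus strand) matches mt-Co3 at 60 of 60 bases, and the copy Gm11410 (chr4:80003989-80005131, plus strand) matches mt-Cytb at 55 of 60. Capitals in the copies mark the bases that differ. Neither copy has a row in the tables.
mt-Co3: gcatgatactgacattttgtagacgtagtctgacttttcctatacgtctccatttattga
Gm28437: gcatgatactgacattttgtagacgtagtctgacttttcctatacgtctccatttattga
mt-Cytb: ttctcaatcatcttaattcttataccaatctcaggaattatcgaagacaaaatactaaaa
Gm11410: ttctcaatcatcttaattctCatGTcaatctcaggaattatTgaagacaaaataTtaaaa

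Among nuclear members the highest mean levels over 14 mice were those of Cox4i1 (19.3), a regulatory subunit of complex IV, and Ndufa4 (12.6), first assigned to complex I and now placed with complex IV, though its symbol puts it under complex I in the counts here. They were followed by Atp5b (11.6) and Atp5a1 (9.68), the catalytic β and α subunits of ATP synthase, and by the complex IV subunits Cox6b1 (9.21) and Cox6c (9.12). A few members were hardly counted: Atp5g2 and Cox8c had 1 UMI each, Atp5l-ps1 had 5 and Cox8b had 11. Atp5l had 334 UMIs, and 83.4% of its 50-base stretches occur in other transcripts, so its level is uncertain. The same holds in part for Atp5h (60.3%), Ndufs3 (53.9%), Uqcrb (46.8%), Ndufs5 (43.5%), Cox5a (42.4%) and Cox7c (40.8%). Uqcrc2, with 17471 UMIs, shared 100% with the protein-coding gene Pdzd9, and Ndufb6 shared 46.1% with the protein-coding gene Smim27. Whether these pairs are copies or genes that overlap at 1 place was not examined, and both levels are uncertain too.

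The first comparison asked how the members differ between neurons and oligodendrocytes of the same mice. Of 71 nuclear members tested, 68 were higher in neurons and 1 was lower, with a median log2 fold change of 0.96 (edgeR, mouse as block, 13 mice, Benjamini-Hochberg adjusted p under 0.05). Over all 8374 genes tested, 49.4% were higher and 36.4% lower in neurons, with a median of 0.21. The 11 nuclear members left out by the filter on low counts and 3 mitochondrial ones were Atp5g2, Atp5l, Atp5l-ps1, Cox4i2, Cox6a2, Cox6b2, Cox7a1, Cox7b2, Cox8b, Cox8c, Ndufa4l2, mt-Atp6, mt-Co2 and mt-Co3. Complex I had 35 of 37 tested members higher, complex III had 8 of 8, complex IV 10 of 11 with 1 lower, and ATP synthase 15 of 15. Those 15 are assigned by symbol and include Atp5s and Atp5sl, which are not subunits of the enzyme.

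Atp5g3, 1 of 3 genes for the membrane ring subunit c of ATP synthase (GRCm38 chr2:73908447-73911326, minus strand), had the largest difference among members. Its lowest, median and highest level was 7.36, 11.4 and 12.5 in neurons against 1.39, 1.89 and 2.36 in oligodendrocytes. The groups did not overlap, and the log2 fold change was 2.33 ± 0.05 (SE, edgeR adjusted p = 1.5e-46). Cox5a, a subunit of the complex IV matrix side (chr9:57521274-57532426, plus strand), had 1.82, 11.1 and 13.2 in neurons against 0.398, 1.90 and 2.42, with a log2 fold change of 2.19 ± 0.06. Its groups overlapped because of the libraries that stood apart, but the neuronal level exceeded the oligodendrocyte level in 13 of 13 mice.

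Cox7b, another small complex IV subunit, had 6.89, 10.7 and 12.0 in neurons against 1.49, 2.34 and 3.03 (log2 fold change 1.85 ± 0.05), with no overlap. Ndufa4 had 13.3, 16.2 and 22.6 against 3.07, 3.99 and 6.08 (1.69 ± 0.04), also without overlap. The complex I subunits Ndufa12 and Ndufa1 had log2 fold changes of 1.76 and 1.63. Cox4i1, the most counted nuclear member, differed less, by 0.47 ± 0.04. The differences for Ndufb11 (0.04, adjusted p = 0.45) and Ndufa3 (-0.07, adjusted p = 0.202), both of complex I, did not pass the test.

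Cox6a1, the common isoform of complex IV subunit 6a (chr5:115345642-115348981, minus strand), was the 1 nuclear member lower in neurons, with a log2 fold change of -0.20 ± 0.04, but it turned to 0.09 with total UMIs in place of TMM as library sizes. Its levels were 6.43, 8.18 and 14.9 in neurons against 6.09, 8.31 and 14.9 in oligodendrocytes, and the neuronal level was higher in 10 of 13 mice. The groups overlapped throughout. That scaling, added after the data were seen, moved the median of all genes from 0.21 to 0.50, called 58.0% of genes higher and 28.5% lower, and left 70 of 71 nuclear members higher and 0 lower. Among cells of 1000 to under 2000 UMIs, also an added setting (11 mice), 55 of 65 tested nuclear members were higher in neurons and 1 was lower. The share of all genes called in that setting is not given here, so this count has no background beside it.

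Promoters of Atp5g3 and Cox6a1 are printed because these genes lie at opposite ends of that comparison. Each window runs from 250 bases before to 50 after the RefSeq start (GRCm38.p6), chr2:73911277-73911576 and chr5:115348909-115349208, both from the minus strand. Capitals mark matches to the motif of NRF1, a regulator of respiratory genes (GCGCA, any base, GCGC), of ETS factors such as the one formed with Gabpa (CCGGAAG) or of YY1 (AAGATGGCG), searched on both strands. Atp5g3 held an NRF1 match, and Cox6a1 held NRF1 matches at a pair of places and an ETS match.
Atp5g3: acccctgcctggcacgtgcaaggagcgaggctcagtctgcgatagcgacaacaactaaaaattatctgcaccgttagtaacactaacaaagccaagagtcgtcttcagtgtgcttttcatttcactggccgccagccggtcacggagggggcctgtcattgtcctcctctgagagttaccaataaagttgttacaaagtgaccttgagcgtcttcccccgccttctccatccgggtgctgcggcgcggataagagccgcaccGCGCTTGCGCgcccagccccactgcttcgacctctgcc
Cox6a1: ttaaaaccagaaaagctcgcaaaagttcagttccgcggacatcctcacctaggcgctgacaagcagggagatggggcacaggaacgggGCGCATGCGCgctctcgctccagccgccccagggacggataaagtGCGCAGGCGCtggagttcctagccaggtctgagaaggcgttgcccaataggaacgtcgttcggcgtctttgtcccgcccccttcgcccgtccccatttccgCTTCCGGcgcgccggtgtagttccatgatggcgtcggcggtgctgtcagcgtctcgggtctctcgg

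RefSeq promoter windows were matched for 67 of the 82 nuclear members. The NRF1 motif occurred in 15 of them (22.4%) against 5.19% of 27025 genes, the ETS motif in 20.9% against 9.93%, and the YY1 motif in 11.9% against 1.64%. At least 1 of these motifs occurred in 32 members (47.8%), against 15.1% of all genes. The core of the hypoxia response element (ACGTG), bound by HIF, occurred in 26.9% against 21.8%. These shares describe letters in a window and were not tested.

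Of 8 mitochondrial members tested in the same comparison, 4 were higher and 4 lower in neurons (edgeR), beside 49.4% and 36.4% of all genes. Higher were mt-Nd6 (log2 fold change 0.25), mt-Nd1 (0.14), mt-Nd5 (0.11) and mt-Nd2 (0.09), all of complex I, and none of these 4 calls was kept when cells needed at least 1000 UMIs. Lower were mt-Nd4 (-0.46), mt-Nd3 (-0.93), mt-Cytb (-0.94) and mt-Co1 (-1.19). The level of mt-Cytb was 27.5, 33.1 and 44.4 (lowest, median, highest) in neurons against 42.9, 52.9 and 79.1 in oligodendrocytes, and that of mt-Co1 was 2.06, 2.81 and 4.91 against 4.04, 5.47 and 8.53. Both ranges overlapped slightly, but in 0 of 13 mice was the neuronal level the higher. Ribosomal RNAs of the mitochondrion, which are no members, summed to 44.9 in neurons and 85.0 in oligodendrocytes.

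Genes of neighbouring mitochondrial pathways were read from lists, beside 49.4% of all genes higher and 36.4% lower in neurons. Of the 4 succinate dehydrogenase genes (complex II, the enzyme made by the nucleus alone), Sdhb (1.26), Sdhd (1.00) and Sdha (0.54) were higher in neurons and Sdhc (-0.01) did not pass. Cycs (1.52), which encodes cytochrome c, and Cyc1 (1.18), which encodes cytochrome c1 of complex III, were both higher. Assembly factors were higher in 28 of 33 tested and lower in 1 (median 0.88), with Ttc19 of complex III at 2.31 and Ndufaf4 of complex I at 1.39. Mitochondrial ribosomal proteins were higher in 61 of 72 and lower in 2 (median 0.64), and enzymes of the TCA cycle and pyruvate dehydrogenase in 13 of 14 and 0 (median 1.18). Of the carriers, channels and import genes, 13 of 16 were higher and 1 was lower, led by the outer membrane channel Vdac1 (2.45) and the phosphate carrier Slc25a3 (1.63). Regulators of mitochondrial biogenesis were mixed, 5 higher and 3 lower of 10. Among them the coactivators Ppargc1b (5.54) and Ppargc1a (3.87) and the mitochondrial transcription factor Tfam (0.59) were higher.

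**Figure D2:**
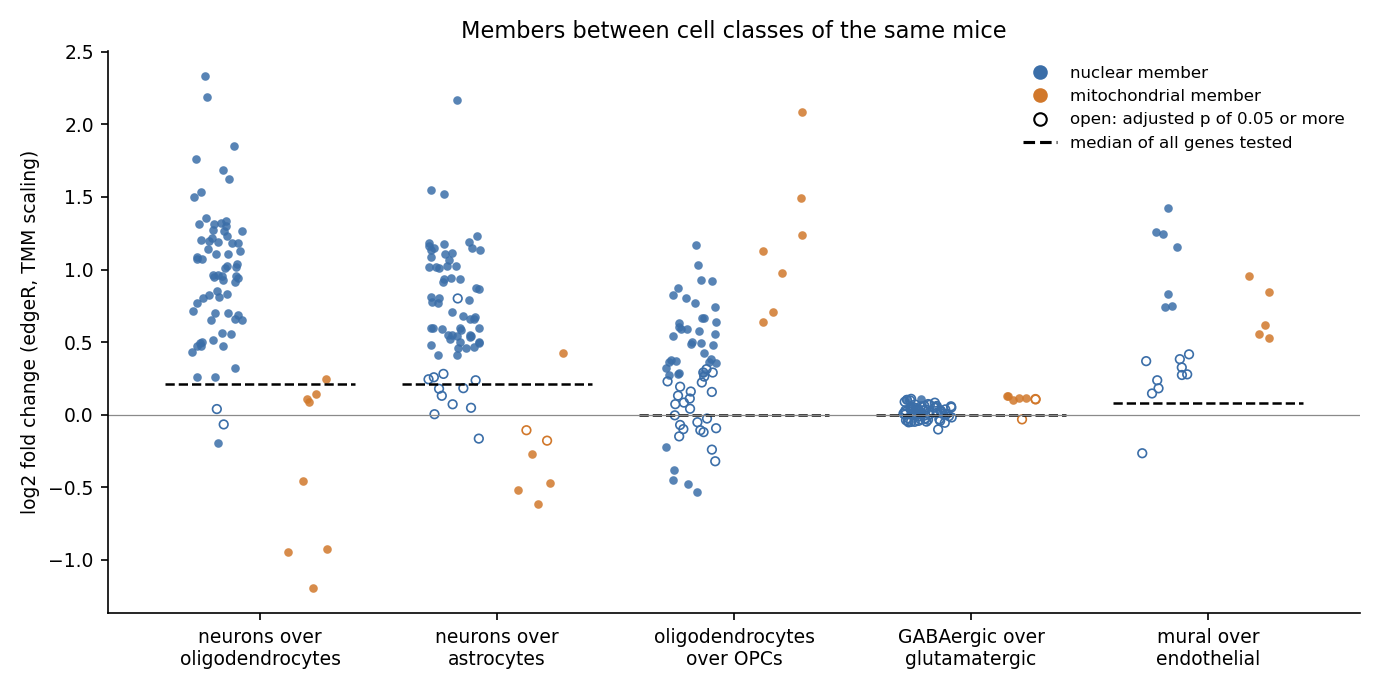
Log2 fold changes of the tested members in 5 comparisons of cell classes within mice (edgeR, TMM scaling), nuclear in blue and mitochondrial in orange. Filled points passed an adjusted p of 0.05, open points did not, and dashed lines give the median of all genes tested. Nuclear and mitochondrial members part most in neurons over oligodendrocytes (medians 0.96 and -0.18), the orange points of neurons over astrocytes depend on the scaling and were 3 higher and 0 lower of 7 by DESeq2, and the nuclear points of oligodendrocytes over OPCs turned to 11 higher and 18 lower of 65 with total UMIs as library sizes.

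Against astrocytes, the glia that take up transmitter and glucose from blood, 59 of 71 nuclear members were higher in neurons and 0 lower (median 0.67, edgeR, 12 mice), where 40.5% of 4484 genes were higher and 31.3% lower. Complex I had 32 of 37 higher, complex III 6 of 8, complex IV 10 of 11 and ATP synthase 11 of 15. Atp5s and Atp5sl, which are not subunits of ATP synthase, are among those 15 and did not pass. The largest difference was that of Atp5g1 (2.17 ± 0.41), another gene for subunit c of ATP synthase. Next came the complex I subunits Ndufb4 (1.55), Ndufa1 (1.52) and Ndufa5 (1.23) and the complex IV subunit Cox5b (1.19). Atp5g1 and Ndufb4 were near the floor in astrocytes, with median levels of 0.039 and 0 against 0.742 and 0.880 in neurons. Atp5g1 had only 9 UMIs in astrocytes, so the size of both differences is uncertain. For Ndufa1 the lowest, median and highest level was 3.15, 4.03 and 4.65 in neurons against 0.192, 0.986 and 2.48 in astrocytes, with no overlap. The values of Uqcr11 of complex III (-0.16) and Ndufs3 of complex I (0.00) did not pass.

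Astrocytes had a median of 676 UMIs, and few were deep. Among cells of 1000 to under 2000 UMIs, where only 3 mice had enough cells of both classes against 12 in the main comparison, 5 of 52 tested nuclear members were higher in neurons and 2 were lower. The share of all genes called in that setting is not given here, so the lower count cannot be read as particular to the members. The ratio of nuclear sums, 2.21 in all cells (12 of 12 mice above 1, 1.78 to 2.50), was 1.79 among those cells (3 of 3 mice above 1). Depth and the number of mice changed together there, and their parts in the count cannot be told apart. Mitochondrial members gave 1 higher and 4 lower of 7 by edgeR with TMM, 3 higher and 0 lower by DESeq2, and 2 higher and 0 lower with total UMIs (55.2% and 23.5% of all genes), so no direction is given for them. For DESeq2 the shares of all genes called are not given here. By edgeR mt-Nd1 was higher (0.43), and mt-Nd4 (-0.61), mt-Co1 (-0.52), mt-Cytb (-0.47) and mt-Nd5 (-0.27) were lower, but without control replicate 7 none of these 7 genes was lower. The median of all genes was 0.21 by edgeR with TMM, 0.73 by DESeq2 and 0.65 with total UMIs. The mitochondrial ribosomal RNAs mt-Rnr1 and mt-Rnr2 were lower in neurons, with log2 fold changes near -2.06 and -2.02.

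Beside 40.5% of all genes higher and 31.3% lower, mitochondrial ribosomal proteins had 30 of 68 higher in neurons than in astrocytes and 3 lower, assembly factors 10 of 19 and 1, and carriers 12 of 15 and 2. TCA cycle genes were split, with 6 of 14 higher and 3 lower. Citrate synthase Cs (-1.57), which opens the cycle, was lower in neurons, and malate dehydrogenase Mdh2 (1.06), which closes it, was higher. Ppargc1a was lower too (-2.50).

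Oligodendrocytes were next compared with their precursors. Of 65 nuclear members tested, 35 were higher and 5 lower in oligodendrocytes (median 0.29, edgeR, 11 mice) under TMM scaling, where 33.8% of 4267 genes were higher and 31.7% lower, and the count turned to 11 higher and 18 lower with total UMIs as library sizes. That scaling moved the median of all genes from 0.00 to -0.38 and called 22.5% of them higher and 48.3% lower. Cox4i1 was 11.7, 13.3 and 17.2 (lowest, median, highest) in oligodendrocytes against 4.83, 8.02 and 9.88 in OPCs, without overlap, with a log2 fold change of 1.17 ± 0.09. Ndufa4 moved the other way, with 3.55, 3.99 and 5.65 against 6.07, 7.47 and 9.86 (-0.45 ± 0.09), again without overlap. Ndufa4 lost its sign when no filter on low counts was used (0.09), a setting that moved the median of all genes to 0.22.

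Other members higher in oligodendrocytes with TMM were the complex I subunits Ndufa3 (1.03) and Ndufs7 (0.93), Cox6a1 (0.92) and the ATP synthase subunit Atp5h (0.87). Besides Ndufa4, those lower were Ndufa12 (-0.53), Ndufa9 (-0.48), Uqcrb of complex III (-0.38) and Atp5a1 (-0.22), which all turned positive without the filter. By sums, the nuclear part of complex IV had a ratio of oligodendrocytes over OPCs of 1.17 (11 of 11 mice above 1), complex I 0.925 (0 of 11) and ATP synthase 0.872 (0 of 11). Ndufa4, now placed with complex IV, was counted under complex I in these sums. Its mean level was 4.26 in oligodendrocytes and 7.61 in OPCs, so the split between complexes I and IV depends on that assignment. The ratios with Ndufa4 under complex IV are not given here.

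All 7 mitochondrial members tested were higher in oligodendrocytes than in OPCs (median 1.13, edgeR), and 7 of 7 were so with total UMIs and among cells of 1000 to under 2000 UMIs (10 mice). For the last setting the share of all genes called is not given here. The level of mt-Co1 was 4.04, 5.47 and 8.53 in the oligodendrocytes against 1.14, 1.502 and 3.85 in OPCs (log2 fold change 2.09 ± 0.12), with no overlap. That of mt-Cytb was 42.9, 52.9 and 60.1 against 25.6, 29.97 and 38.6 (1.13 ± 0.08), again with no overlap. The others were mt-Nd6 (1.49), mt-Nd5 (1.24), mt-Nd4 (0.97), mt-Nd1 (0.71) and mt-Nd2 (0.64). Mitochondrial ribosomal RNAs were higher too, by 1.68 and 0.95. Counts in lists of nuclear mitochondrial genes, beside 33.8% of all genes higher and 31.7% lower, went both ways: ribosomal proteins had 9 higher and 8 lower of 52, the TCA cycle 2 and 5 of 14, and assembly factors 3 and 4 of 13, among them the copper chaperone Cox17 of complex IV at 1.37.

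Between the main neuron classes the members barely differed. The nuclear sum was 449 ± 49.7 in GABAergic and 450 ± 56.8 in glutamatergic neurons, a ratio of 0.999 that was above 1 in 6 of 13 mice. Only Ndufa5 (0.11, adjusted p = 0.015) and Ndufa8 (0.11, adjusted p = 0.034), both of complex I, passed among 71 nuclear members (edgeR), where 4.98% of 8529 genes were higher and 4.42% lower in GABAergic neurons, 9.4% in all. With total UMIs as library sizes 1 nuclear member passed (4.68% of genes higher, 4.73% lower). The mitochondrial sum was 126 ± 13.3 against 117 ± 13.6, with a ratio of 1.08 above 1 in 13 of 13 mice. Of 8 mitochondrial members 5 were higher in GABAergic neurons: mt-Nd4 (0.13), mt-Nd5 (0.13), mt-Nd2 (0.12), mt-Cytb (0.12) and mt-Nd1 (0.10). The ranges of all these genes overlapped, and without the mouse as a block 0 nuclear and 0 mitochondrial members passed. The share of all genes called without the block is not given here.

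Hypocretin neurons, which release the wake-promoting orexin peptides, had a nuclear sum of 307 ± 48.5 in the 6 mice with at least 10 such cells, from 251 to 393. The ratio to glutamatergic neurons of the same mice was 0.677, below 1 in all 6, and the ratio of mitochondrial sums was 0.957. The peptide gene Hcrt alone took 12.9% to 17.9% of the UMIs of these cells. With Hcrt left out of the total, the nuclear ratio was 0.80 (0.705 to 0.856, 0 of 6 mice above 1) and the mitochondrial ratio 1.13 (1.05 to 1.19, 6 of 6 above 1). MCH neurons reached 10 cells in 2 mice only, with nuclear sums of 265 and 264 and mitochondrial sums of 82.5 and 83.9, while their peptide gene Pmch took 20.7% and 22.2% of UMIs.

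The neurons were also described by subcluster. A subcluster of 143 cells led by Syt2 and Kcna1, assigned to neither transmitter class, had a mitochondrial sum of 323 ± 68.0 over 8 mice (225 to 452) and a nuclear sum of 392 ± 49.7. In other subclusters the mean mitochondrial sum lay between 98.3 and 144, and the highest value of a single mouse was 218. The cells led by Syt2 were shallow, with a median of 1180 UMIs, and 39.9% of them came from the 3 libraries that stood apart. In those libraries the mitochondrial sum was 305, 304 and 279, within the range of the other 5 mice (225 to 452). The part of depth in this sum was not tested. The neurons of 500 to 999 UMIs described above, which take in any cells led by Syt2 of that depth, had 191. Unnamed neuron subclusters with medians of 828 and 848 UMIs had mean mitochondrial sums of 138 and 134. Nuclear sums were highest in the subclusters led by Trp73 and Nppc (553 ± 67.6, 4 mice) and by C1ql2 (542).

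**Figure D3:**
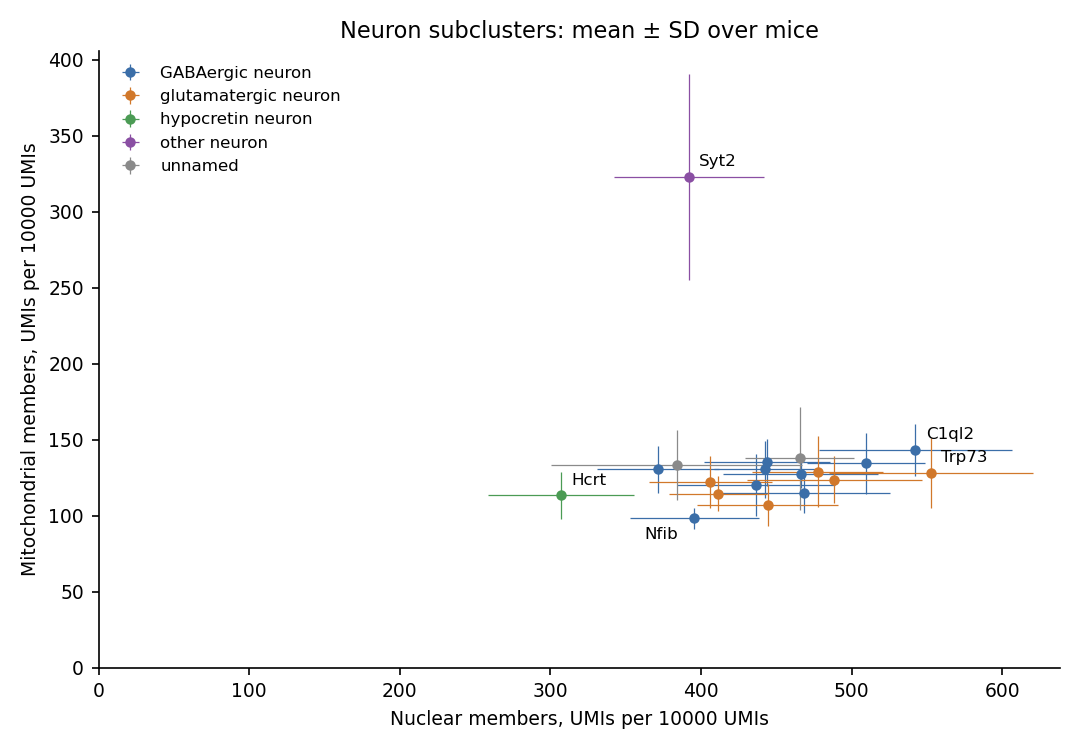
Nuclear against mitochondrial members in subclusters of neurons with at least 3 mice, as UMIs per 10000 UMIs. Points are means over mice, bars are SD, colours give the class, and some points carry their leading gene. The point labelled Syt2 lies alone at a mitochondrial sum of 323, and the hypocretin point has the lowest nuclear sum at 307.

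Mural cells were compared with endothelial cells, the other cell type of the vessel wall. Of 17 nuclear members that passed the filter on low counts 7 were higher in mural cells and 0 lower (median 0.38, edgeR, 11 mice), where 27.6% of 344 genes were higher and 27.3% lower. Ndufa13, a complex I subunit, had 4.96, 6.33 and 12.4 (lowest, median, highest) in mural against 1.78, 2.53 and 4.42 in endothelial cells, with no overlap and a log2 fold change of 1.42 ± 0.17. The others were Atp5a1 (1.26), Cox8a (1.25), Atp5b (1.16), Cox6c (0.83), Atp5c1 (0.75) and Ndufa6, and Ndufa4 (-0.27, adjusted p = 0.228) did not pass. All 5 mitochondrial members tested were higher (median 0.62). The level of mt-Cytb was 39.1, 59.9 and 75.7 in mural against 29.1, 35.6 and 46.1 in endothelial cells (0.85), with overlap, and mt-Nd4 was 0.95. With total UMIs as library sizes 6 nuclear members were higher, 1 was lower and 4 mitochondrial members were higher (22.1% of genes higher, 33.7% lower). With at least 1000 UMIs per cell, where 3 mice remained, 2 nuclear and 0 mitochondrial members passed, and the share of all genes called is not given here.

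Paralogue shares were unlike in mural and endothelial cells. Cox4i2, the isoform of Cox4i1 known from lung and hypoxia (chr2:152754173-152765037), made up 36 of the 243 Cox4i UMIs of mural cells, or 14.8% (exact binomial 95% interval 10.6% to 19.9%). In endothelial cells it made up 4 of 451 (0.887%) and in neurons 2 of 58592. Ndufa4l2, the paralogue of Ndufa4 induced by hypoxia (chr10:127514967-127517154), was 56 of 160 UMIs of its pair in mural cells, or 35% (27.6% to 42.9%), against 17 of 344 (4.94%) in endothelial cells and 10 of 41809 in neurons. In oligodendrocytes it was 0 of 3300, which allows up to 0.112%, and it was also 0 in OPCs (up to 0.652%), astrocytes (up to 0.898%) and microglia (up to 2.41%). Intervals here and below cover counting error only.

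Within mural cells the pair was uneven. In the 144 cells led by Kcnj8 and Abcc9, markers of pericytes, Ndufa4l2 had 47 UMIs (3.71 per 10000, in 12 of 13 mice), more than the 35 UMIs of Ndufa4 (2.76), and Cox4i2 had 28 (2.21, in 9 of 13 mice) beside 88 of Cox4i1 (6.94). In the 109 cells led by Acta2 and Tagln, markers of smooth muscle, Ndufa4l2 had 10 (0.927) and Cox4i2 had 8 (0.742), beside 6.68 per 10000 for Ndufa4 and 12.4 for Cox4i1. Endothelial subclusters lay between 0.108 and 0.614 for Ndufa4l2 and at most at 0.108 for Cox4i2. No test was made on the subclusters.

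Cox6a2, the isoform of Cox6a1 known from heart and skeletal muscle (chr7:128205435-128206387), was 239 of 23365 Cox6a UMIs in neurons (1.02%). It was concentrated: a subcluster of 82 cells led by Npw, H2-K1, Nkx2-4 and Ebf1 held 50 UMIs, 20.4% of all in neuron subclusters, at 2.07 per 10000 UMIs (exact Poisson 95% interval 1.53 to 2.73). These came from 8 of 12 mice, and the most in 1 cell was 10. Next were the subclusters led by Nfib and Htr3a (31 UMIs, 0.423 per 10000), by Chat and Slc5a7, the genes of cholinergic neurons (38 UMIs, 0.258 per 10000), and by Pvalb, the gene of parvalbumin (20 UMIs, 0.221 per 10000). The subcluster led by Ddc had 38 UMIs at 0.105 per 10000, and hypocretin neurons had 0 UMIs, which allows up to 0.037 per 10000.

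**Figure D4:**
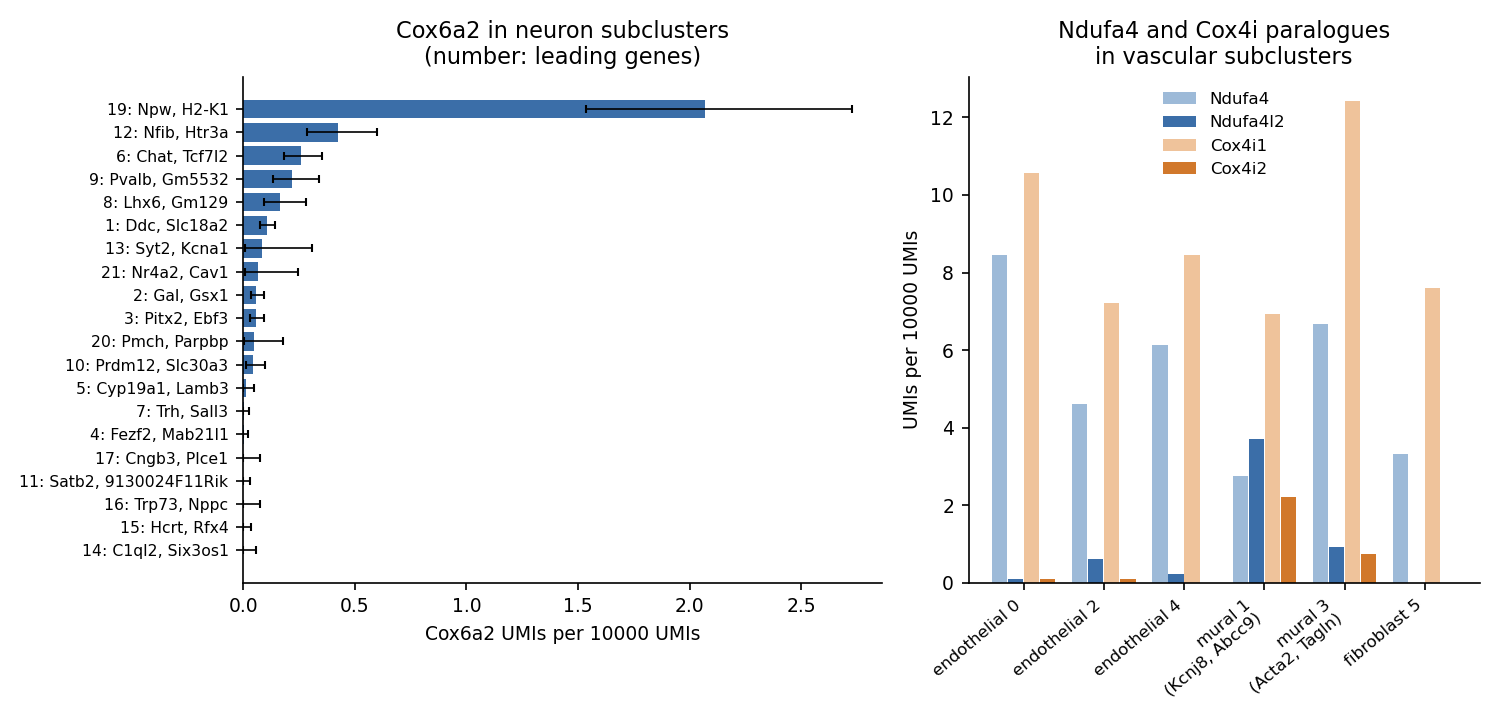
Left, Cox6a2 UMIs per 10000 UMIs in neuron subclusters, with exact Poisson 95% intervals, named by number and leading genes. Right, UMIs per 10000 UMIs of Ndufa4, Ndufa4l2, Cox4i1 and Cox4i2 in vascular subclusters, summed over mice without an error bar. The subcluster led by Npw stands at 2.07, and Ndufa4l2 exceeds Ndufa4 in the mural cells led by Kcnj8 (3.71 against 2.76).

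Shares of other paralogues also varied by class. Cox7a2l made up 54.7% of Cox7a UMIs in microglia (47.8% to 61.5%), 36.7% in endothelial cells and 20.5% in neurons. Cox6b2, better known from testis, was 9.12% of Cox6b UMIs in astrocytes (29 of 318), 1.55% in oligodendrocytes and 0.546% in neurons. Of the subunit c genes, Atp5g1 took 12.9% in oligodendrocytes (211 of 1640), 6.61% in neurons and 3.38% in astrocytes, and nearly all the rest was Atp5g3. Cox6a2 was also 12 of the 200 Cox6a UMIs of microglia (6%).

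Diet was compared within each class, with pool as a covariate. No member passed in any of 9 classes (edgeR), and neither did any other gene: 0% of the genes tested were called in each class, from 251 genes in mural cells to 10577 in all neurons. At an unadjusted p under 0.05 there were 138 genes in neurons, 104 in oligodendrocytes and 12 in mural cells. DESeq2 called 0 genes in each class except 2 in GABAergic neurons, of which none was a member. The difference in the effect of diet between glutamatergic and GABAergic neurons also gave 0 of 9388 genes.

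In neurons the nuclear sum was 426 ± 50.5 in control mice (356 to 521) and 449 ± 51.7 on the high fat diet (394 to 532), and the mitochondrial sum was 126 ± 16.8 and 118 ± 11.2. In oligodendrocytes the mitochondrial sum was 138 ± 17.1 (110 to 162) and 121 ± 7.03 (108 to 130). These groups overlapped. The log2 fold change of diet had a median of 0.07 over nuclear members in neurons, positive in 63 of 75, and of -0.13 over mitochondrial members, negative in 8 of 8. In oligodendrocytes the medians were 0.02 (40 of 71 positive) and -0.18 (8 of 8 negative), and in astrocytes 0.17 (38 of 46 positive) and 0.07. Genes of a class are counted from the same cells, so these are not separate observations. The median over all genes tested was -0.0024 in neurons, 0.0053 in oligodendrocytes and -0.0016 in astrocytes. The share of all genes with each sign is not given here. Without the 3 libraries that stood apart, the mitochondrial median was -0.06 in neurons and 0.00 in OPCs, where it had been -0.22.

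The values of mt-Nd5, a core subunit of the proton-pumping arm of complex I, are given because its log2 fold change was negative in each of the 9 classes. These classes come from the same mice, and that of all neurons contains the glutamatergic and GABAergic ones, so they are not separate observations. Its lowest, median and highest level in neurons was 8.30, 13.1 and 22.4 in control mice against 6.32, 10.1 and 15.8 on the high fat diet, and the groups overlapped. The log2 fold change was -0.41 in neurons, -0.48 in oligodendrocytes, -0.80 in OPCs, -0.50 in astrocytes, -0.81 in microglia, -0.65 in endothelial and -0.56 in mural cells. The unadjusted p was 0.022 in OPCs, 0.013 in astrocytes and 0.037 in microglia, and the edgeR adjusted p was 0.982, 0.958 and 0.940. By pool the values were -0.58 and -0.17 in neurons (pool 1, pool 2), -0.83 and -0.01 in oligodendrocytes and -1.24 and 0.19 in mural cells, but -0.48 and -0.46 in astrocytes. Without the libraries that stood apart they were -0.29 in neurons, -0.32 in oligodendrocytes and -0.08 in mural cells.

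Other members with the smallest p for diet are given by class. In neurons Ndufs6 of complex I was 0.20, Uqcrq of complex III 0.17 and Cox6b1 0.14. In oligodendrocytes Atp5g3 was 0.26, Ndufb6 of complex I 0.23 and Atp5g1 -0.65 ± 0.24 (edgeR adjusted p = 1.00). The level of Atp5g1 there was 0.161, 0.346 and 0.401 in control mice against 0.154, 0.204 and 0.234, with overlap. Elsewhere Atp5a1 was 0.42 in OPCs, Ndufa6 0.62 in astrocytes, mt-Nd2 -0.51 in microglia and Ndufb10 0.75 in endothelial cells. None of these passed. Pathway lists had 0 genes called for diet in each class.

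Some members, named after their values were seen, differed widely between libraries. In neurons Cox5a was 4.55, 1.82 and 1.82 in control replicate 1, control replicate 2 and high fat diet replicate 1, and 6.84 to 13.2 in the other 10 mice. Its coefficient of variation was 44.6% over 13 mice and 16.7% over those 10. Uqcrfs1, the Rieske iron-sulfur protein of complex III (chr13:30540308-30545362), was 1.504, 0.689 and 0.691 against 2.59 to 5.01. Ndufab1, the acyl carrier subunit of complex I, was 1.32, 0.788 and 0.540 against 2.34 to 4.32. Cyc1, which is no member, was 2.181, 1.597 and 1.195 against 3.63 to 6.46.

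Other members went the opposite way in the same libraries. In neurons mt-Nd5 was 22.4, 18.6 and 15.8 against 6.32 to 15.2, mt-Co1 was 4.56, 4.91 and 4.69 against 2.06 to 3.64, and mt-Nd6 was 2.13, 2.29 and 2.01 against 0.899 to 1.63. Oligodendrocytes of these mice showed the same for Cox5a (0.806, 0.398 and 0.578 against 1.22 to 2.42) and Uqcrfs1 (0.430, 0.366 and 0.444 against 1.42 to 2.29). Of nuclear members with a mean level of at least 1 in neurons, 7 of 65 (10.8%) were lowest in these 3 libraries and 0 highest, close to the 12.6% of 2223 genes that were lowest. Of mitochondrial members 4 of 7 were highest, against 10.1% of all genes. In oligodendrocytes 2 of 7 mitochondrial members were highest, against 2.78% of all genes, and 4 of 61 nuclear members were lowest, against 11.0%. The libraries were singled out after values of members, mt-Nd5 among them, were seen, so these counts are no separate support. The libraries belong to both diets and to 1 pool, and they are described here with no test.

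**Figure D5:**
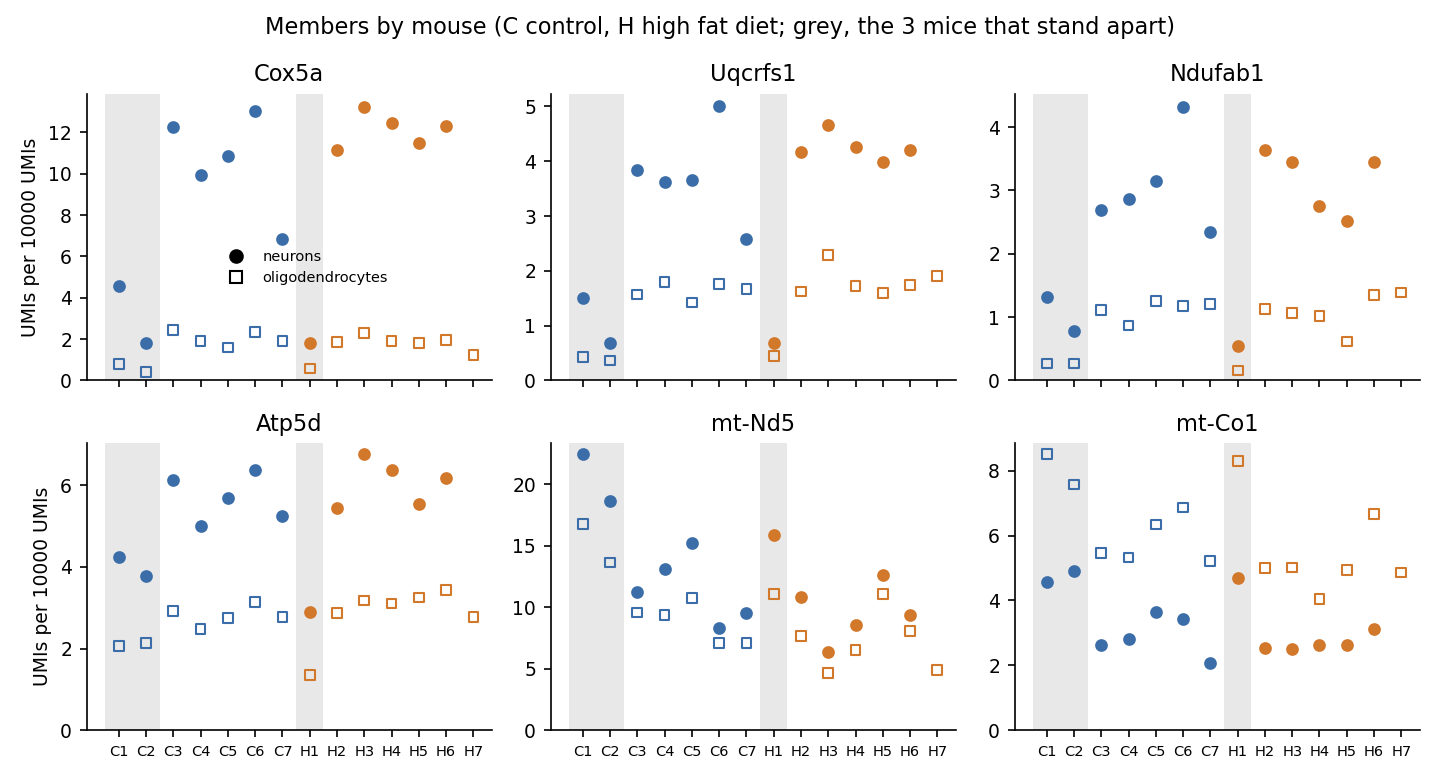
Levels of 6 members in each mouse as UMIs per 10000 UMIs, with filled circles for neurons and open squares for oligodendrocytes, blue for control (C) and orange for high fat diet (H). Grey bands mark control replicate 1, control replicate 2 and high fat diet replicate 1. Cox5a, Uqcrfs1 and Ndufab1 are lowest within the grey bands in neurons, and mt-Nd5 and mt-Co1 are highest there.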

How the data were processed

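Drop-seq libraries of 14 mice were analysed from the deposited tables, 1 per mouse, which hold raw UMI counts of genes by barcodes as the authors made them, in whole numbers and without normalization. Reads went through Picard 2.2.4, STAR 2.4.2a and bcl2fastq 2.18.0.12 on mm10 (GRCm38), per the submitters' processing notes, which are listed without order. The UMI counter, its annotation, its strand setting and its barcode rule were not given in the sources used here, so counts of overlapping genes and near-identical copies are uncertain.

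The members, gene lists and tests were chosen with earlier results of these data known, and no p-value was computed for a sum or list. Cells needed at least 500 UMIs, 300 genes and at most 20% mitochondrial UMIs. Doublets were called with scrublet in mice with at least 300 cells (scanpy 1.11.5). Cells were clustered on 2000 variable genes and 30 principal components (leidenalg 0.10.2, resolution 1), leaving out the members and all mitochondrial genes. A cluster took a class name when at least 3 markers of the class were 1.5-fold higher and seen in 10% of its cells. Neurons and vascular cells were each clustered a second time, where neuron subclusters needed a marker fold of 1.2. Class names mean clusters resembling those classes. Ndufa4l2 was not used as a marker.

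Counts were summed per class and mouse with at least 10 cells and tested with edgeR 4.0.16 (R 4.3.3, quasi-likelihood, robust, TMM, filterByExpr, Benjamini-Hochberg over all genes tested, threshold 0.05). Classes were compared with the mouse as a block, since both classes come from the same animals, and diets with sequencing pool as a covariate. The fits were checked on simulated data. DESeq2 1.42.0, other filters, other scalings and leaving out mice were alternatives. Total UMIs as library sizes and cells of 1000 to under 2000 UMIs were added after the data were seen. For comparisons of classes, shares of all genes called are given for the main setting and total UMIs only. Counts of members in the other settings therefore have no such background. Named were the 6 most abundant members of each genome, paralogues, up to 5 members per direction with the largest fold change that passed in a comparison, up to 3 per direction with the smallest p for diet, mt-Nd6, and up to 3 genes of each pathway list. The subclusters, Cox5a, Uqcrfs1, Ndufab1 and the members at the edge of passing were named after their values were seen, as was mt-Nd5 for diet. Positions and shared 50-base stretches, taken from 3′ ends and sought on both strands, come from GRCm38 annotation and transcripts, and promoters from RefSeq. Python 3.11.15, numpy 2.4.6 and scipy 1.17.1 were used.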

Additional observations from a re-analysis of the deposited data

Results flagged for a closer look

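Sums in 4 of 38 groups of 4 to 10 mice held a value far from the others by Dixon's criterion, which chance meets in about 1 in 20 groups. The nuclear sum of control replicate 6 was 570.7 in glutamatergic neurons, where the other control mice lay between 401 and 444, and 241 in oligodendrocytes, where they lay between 171 and 197. The nuclear sum of OPCs was 201.5 in control replicate 2 against 172 to 180. The mitochondrial sum of astrocytes was 177 in high fat diet replicate 4 against 75.9 to 112 in the other mice on that diet. In barcodes below the cell filter, which enter no comparison, the median over 14 libraries was 139 UMIs of mitochondrial members and 287 of nuclear members per 10000 UMIs.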

How the results depend on the processing

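For neurons against oligodendrocytes, leaving out each mouse in turn gave 68 nuclear members higher and 4 mitochondrial members lower every time. Leaving out mice gave 57 to 69 nuclear members higher in neurons than in astrocytes, 29 to 39 in oligodendrocytes than in OPCs and 6 to 10 in mural than in endothelial cells. For counts and sums, 818 values with 1 mouse left out stayed close to the main value and 13 moved, and under the other alternatives 482 stayed and 37 moved. For single named genes, 743 values with 1 mouse left out kept direction and call, 18 lost the call and 1 turned sign, and under the other alternatives 538, 34 and 19 did. The cause of each move was not tested unless stated.

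The numbers of the mice follow list order. No paired analysis was possible because these numbers pair no mice of the 2 diets. Classes of a mouse are paired by the animal. Without the replicate block 0 nuclear and 0 mitochondrial members passed between GABAergic and glutamatergic neurons, where 2 and 5 had passed. It also took the mitochondrial members higher in neurons than in oligodendrocytes from 4 to 0 and the nuclear members lower there from 1 to 0, and the other counts of members given in the report moved by less than 1.5 times.

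Apart from those with total UMIs, the alternative counts in this paragraph have no share of all genes beside them. For neurons against astrocytes, nuclear members higher fell from 59 to 5 among cells of 1000 to under 2000 UMIs, with 3 mice in place of 12. Mitochondrial members lower went from 4 to 0 with DESeq2, with no filter on low counts and with total UMIs, and ranged from 0 to 5 with 1 mouse left out (0 without control replicate 7). For oligodendrocytes against OPCs, the nuclear count of 35 was 61 without the filter, 11 with total UMIs and 20 among cells of 1000 to under 2000 UMIs. For GABAergic against glutamatergic neurons the nuclear count of 2 was 1 without the 3 libraries that stood apart, 1 with total UMIs and 0 among cells of 1000 to under 2000 UMIs (8 mice), and 0 to 3 with 1 mouse left out. The mitochondrial count of 5 was 0 among cells of 1000 to under 2000 UMIs. For mural cells, with 3 mice in place of 11, the nuclear count of 7 was 2 with at least 1000 UMIs and 0 among cells of 1000 to under 2000 UMIs, and the mitochondrial count of 5 was 0 in both, and also without the filter in all 11 mice.

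For diet, genes called rose from 0 without the filter to 15 in neurons, 2 in glutamatergic and 8 in GABAergic neurons, 2 in oligodendrocytes, 1 in OPCs, 1 in microglia and 5 in endothelial cells. DESeq2 called 2 in GABAergic neurons, and mural cells had 1 without the 3 libraries that stood apart. With 1 mouse left out the counts ranged from 0 to 2 in GABAergic neurons (without high fat diet replicate 3 or 5), from 0 to 1 in microglia (high fat diet replicate 1), from 0 to 1 in mural cells (control replicate 3 or high fat diet replicate 4) and from 0 to 1 for the difference between neuron classes (high fat diet replicate 1).

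Sums moved with the cells taken, and fewer mice had enough of them. Among cells of 1000 to under 2000 UMIs the mitochondrial sum of GABAergic neurons was 146, the ratio of neurons to oligodendrocytes was 2.11 (nuclear) and 1.02 (mitochondrial), neurons to astrocytes 1.79 (nuclear), neurons to microglia 3.09 (nuclear) and GABAergic to glutamatergic neurons 1.17 (mitochondrial). With at least 1000 UMIs the mitochondrial sum of astrocytes was 147, the ratio of neurons to astrocytes was 1.90 (nuclear) and 0.853 (mitochondrial), and that of mural to endothelial cells 1.66 (mitochondrial).

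Signs turned for some named genes. Cox6a1 in neurons against oligodendrocytes was 0.087 with total UMIs. In neurons against astrocytes without the filter mt-Nd4 was 0.28, mt-Co1 0.35, mt-Cytb 0.43 and mt-Nd5 0.61. With DESeq2 mt-Cytb was 0.019 and mt-Nd5 0.23, and mt-Nd5 was 0.16 with total UMIs. With 1 mouse left out mt-Nd5 ranged from -0.37 to 0.20, the latter without control replicate 7. In oligodendrocytes against OPCs without the filter Ndufa12 was 0.0069, Ndufa9 0.053, Ndufa4 0.090, Uqcrb 0.15 and Atp5a1 0.32. Ndufa5 in GABAergic against glutamatergic neurons was -0.017 among cells of 1000 to under 2000 UMIs. For diet in pool 2 alone Uqcrq in neurons was -0.076, Ndufs6 in oligodendrocytes -0.23, and in mural cells Atp5b -0.10 and mt-Nd5 0.19. With at least 1000 UMIs mt-Nd5 in endothelial cells was 0.014.

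Depth limits the rare members and classes: astrocytes, microglia, endothelial and mural cells had few UMIs of each paralogue, and fewer transcripts of a gene per cell and more of the other transcripts cannot be told apart in these shares.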

Other observations

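Oligodendrocyte clusters were alike in the nuclear sum, from 181 to 195 UMIs per 10000, but not in the mitochondrial sum. The cluster led by Klk6 had 106, where the others had 144, 133 and 136. Its cells were the deepest, with a median of 1616 UMIs against 797, 1454.5 and 857. In all oligodendrocytes the mitochondrial sum was 142 at 500 to 999 UMIs and 117 at 2000 to 3999 UMIs. The part of depth in the lower sum was not tested. Between GABAergic neuron subclusters, that led by Lhx6 had a nuclear sum of 509, and the subcluster led by Cyp19a1 had 371. These clusters were made from the same cells and were not tested.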
